A study of Mus musculus with 3 samples.

Results

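The phagocyte NADPH oxidase genes studied here are Cybb, Cyba, Ncf1, Ncf4, Rac1 and Rac2. They were picked out by gene symbol, with no threshold on a measured value, and make up 6 of the 55536 genes in the deposited gene tables. They do not cover the whole enzyme complex. RNA bound to chromatin had been sequenced, after ribosomal RNA depletion, from bone-marrow-derived macrophages of C57BL/6J mice. Such macrophages are primary cells grown from marrow precursors. The cells of all 3 libraries were given 100 ng/ml Lipid A, the bacterial membrane lipid that activates the receptor TLR4, for 12 h. They were then kept without it for 12 h and exposed to 100 ng/ml again for 10 min. The libraries are labelled biological replicates, with separate biosamples but 1 donor identifier. Age and sex of the animals are labelled as not collected. With a single condition, and no untreated cells analysed here, the data give levels and the spread between replicates, not a response to Lipid A.

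The oxidase moves electrons from NADPH across the membrane of the phagosome onto oxygen and so makes superoxide. Its membrane part is a dimer of gp91phox, encoded by Cybb, and p22phox, encoded by Cyba. On activation, cytosolic subunits, among them p47phox (Ncf1) and p40phox (Ncf4), and a Rac GTPase (Rac1 or Rac2) join the membrane part. Inherited loss of gp91phox, p22phox, p47phox or p40phox is a cause of chronic granulomatous disease, in which phagocytes fail to kill certain microbes. In bulk RNA, fewer cells of a type and less RNA per cell cannot be told apart.

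Expected counts on genes, which are read numbers shared out by the authors' quantification, totalled 13538605, 19949204 and 18224466 in replicates 1, 2 and 3. The labelled RNA input was 1 µg, 250 ng and 500 ng, with 1 library at each amount, so input and replicate cannot be told apart. The labelled cell type was checked against markers: 10 of 10 macrophage genes reached at least 1 TPM (a level scaled for transcript length and library size) in every library, and their summed level was 765 to 1054 TPM. Neutrophils, which also carry the oxidase, were represented by 12 marker genes. None of these 12 reached 1 TPM in every library and their summed level was 0.860 to 1.06 TPM. S100a8, S100a9, Ly6g and Elane were among those listed at 0 in all 3 libraries. Ngp, at 0.44 to 0.50 TPM, and Mmp8, at 0.22 to 0.48 TPM, were above 0 in each library. In a second set of tables, derived from reads and an index and called read-based here, 2 of the 12 passed, Mpo at 1.90 TPM and Cxcr2 at 4.06 TPM. Markers of B, T and dendritic cells, with 5 genes each, summed to at most 1.15, 0.330 and 2.43 TPM. Of these, 0, 0 and 1 reached 1 TPM in every library, the last being the dendritic Zbtb46 at 1.02, 1.08 and 1.30 TPM. By read-based TPM the T cell gene Cd8a (2.55) and the dendritic genes Zbtb46 (2.18) and Siglech (1.87) passed. More genes pass in those tables in general, 56.2% of protein-coding genes against 45.6% in the gene tables.

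All 6 oxidase genes reached at least 1 TPM in every library, against 45.6% of protein-coding genes. Their median on the log2(TPM + 0.1) scale was 6.02 ± 0.20 (SD, n = 3), beside −0.43 ± 0.13 for all 22028 protein-coding genes. By mean TPM the order was Ncf1 at 119.6 ± 20.4, Cybb at 98.7 ± 25.1, Ncf4 at 91.1 ± 2.82, Cyba at 49.1 ± 14.9, Rac2 at 40.8 ± 8.18 and Rac1 at 10.0 ± 0.387. Among the 10050 detected protein-coding genes these means lay at percentiles 96.1, 94.7, 94.1, 85.9, 82.9 and 43.9. Rac1 was thus close to the middle of detected genes, whose median was 12.1 TPM, and the other 5 lay well above it.

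**Figure D1:**
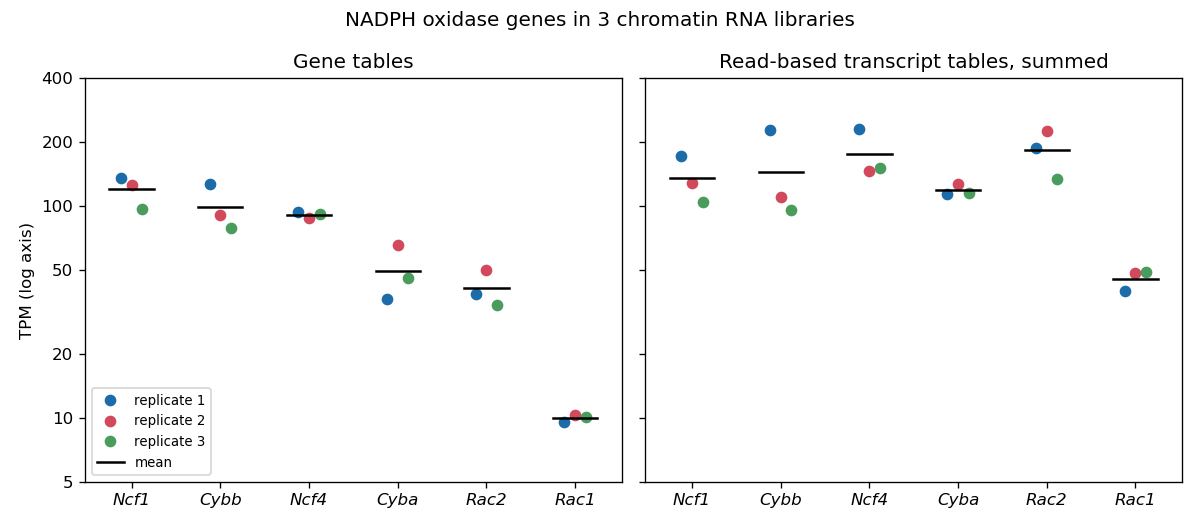
TPM of the 6 oxidase genes (log axis) in each replicate, with the mean as a bar, in the gene tables (left) and in the read-based transcript tables summed per gene (right). Rac1 sits lowest in both panels, at a mean of 10.0 and 45.4 TPM, while Rac2 moves from the fifth place on the left to the first on the right.

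Of the 15 pairs of genes, 13 kept their order in all 3 libraries. The exceptions were neighbours in the order: Cybb with Ncf4 (0.09 ± 0.33 apart on the log2 scale) and Cyba with Rac2 (0.24 ± 0.28), each ordered this way in 2 of 3 libraries and by less than the spread. Ncf1 lay above Cybb in 3 of 3 libraries, by 0.29 ± 0.19. By read-based TPM, only 6 of the 15 pairs had this order in all 3 libraries, and these included each of the 5 pairs with Rac1. Turned round there in all 3 libraries were Ncf1 with Ncf4 and Ncf1 with Rac2, as well as the 2 pairs that the gene tables left without a steady order, Cybb with Ncf4 and Cyba with Rac2.

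Cybb encodes the catalytic subunit gp91phox, which holds the flavin and the haem groups. The gene (ENSMUSG00000015340.10) lies on the minus strand of chromosome X, 9435252 to 9487771 in mm10. It stood at 127 TPM in replicate 1, 90.3 in replicate 2 and 78.9 in replicate 3, on 3665, 3212 and 2841 expected counts. Replicate 1 was high, and replicates 2 and 3 were close to each other. Scaled to library size, as log2 CPM, the log of counts relative to the library's total, Cybb was at 7.997, 7.354 and 7.356. Replicate 1 also had the largest labelled RNA input and stood apart in Cd14, a macrophage marker, at 6.81 TPM against 19.6 and 20.4 (adjusted p = 0.0194 by edgeR). The part of either in the Cybb level was not tested. The deposited SD of its count, a measure of uncertain read assignment, was 0 in each library.

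The long coding transcript of Cybb, Cybb-201, starts at 9469324, and a short coding transcript, Cybb-205, starts 18447 bases upstream. Cybb-205 was listed at 0 TPM in all 3 libraries of the transcript tables that go with the gene tables. The read-based tables gave it 13.5, 4.32 and 2.12 TPM, on 46.2, 24.9 and 10.8 estimated counts. Because Cybb-201 carried most reads of the gene, the sequence around its start is shown, from 60 bases before to 30 bases after it (RefSeq, GRCm38.p6, chrX:9469295-9469384, minus strand). Capitals mark matches to the searched motifs.
Cybb start region: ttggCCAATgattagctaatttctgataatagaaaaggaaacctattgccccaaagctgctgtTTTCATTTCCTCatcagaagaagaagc
Searched on both strands, from 250 bases before to 50 after the start, were GAGGAA, a core bound by the myeloid factor PU.1, the composite element of ETS and interferon regulatory factors, and CCAAT. The composite element matched at position 4 and GAGGAA at position 10 after the start, both on the opposite strand, and these 2 matches overlap. CCAAT matched 56 bases before the start. Of 32851 promoters of the same length, 28.3% held GAGGAA, 2.72% held the composite element and 37.4% held CCAAT. RefSeq promoters were matched for 3 of the 6 genes, and the Ncf1 and Cyba windows held none of the 3 motifs. A match is a description of the letters and not a measured binding site.

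Cyba encodes p22phox, the partner that stabilises gp91phox (ENSMUSG00000006519.11, chromosome 8, 122424776 to 122432930, minus strand). Its levels were 36.3, 65.5 and 45.5 TPM in replicates 1, 2 and 3, on 256, 531 and 367 expected counts. Here replicate 1 was lowest, whereas for Cybb it was highest. Cybb therefore exceeded Cyba by 1.80, 0.46 and 0.79 on the log2(TPM + 0.1) scale, a mean of 1.02 ± 0.70 or 2.03-fold. Without replicate 1 the gap was 0.63. The read-based gap was 1.00, −0.21 and −0.26, so the partners of the dimer were not ordered there. The whole of Cyba lies within the span of the opposite-strand gene Gm20388, itself at 1.13 ± 1.96 TPM. The deposited SD of the Cyba count was 0, and any effect of the overlap on it was not tested.

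Ncf1 encodes p47phox, the organiser that is phosphorylated on activation (ENSMUSG00000015950.13, chromosome 5, 134220053 to 134229625, minus strand). It was at 136 TPM in replicate 1, 126 in replicate 2 and 96.8 in replicate 3, on 3214, 3832 and 3136 expected counts. Ncf4 encodes p40phox, which binds a phosphoinositide of the phagosome membrane (ENSMUSG00000071715.12, chromosome 15, 78244801 to 78262580, plus strand). It was the steadiest of the 6 in TPM relative to its level, at 93.5, 88.0 and 91.8 TPM on 794, 918 and 886 counts, with an SD of 3.10% of the mean. This held only for TPM of the gene tables as deposited. The SD of log2 CPM was 0.12 for Ncf4 but 0.06 for Rac1. The read-based values of Ncf4 were 230.1, 146 and 151 TPM, with replicate 1 apart from the others. Ncf1 exceeded Ncf4 by 0.54, 0.52 and 0.08 on the log2 scale, a mean of 0.38 ± 0.26. The direction was reversed in the read-based tables, at −0.38 ± 0.18, so these data do not order the 2 cytosolic subunits. With transcripts under 500 bases left out, the read-based means were 134.8 ± 33.7 TPM for Ncf1 and 121.5 ± 12.3 for Ncf4. That limit was chosen after seeing the data. The span of Ncf1 overlaps 4303 bases of Gtf2ird2 on the opposite strand, which was at 18.5 ± 3.61 TPM, and the treatment of strand is not given in the sources used here.

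Rac2 encodes the Rac GTPase that is largely restricted to blood cells (ENSMUSG00000033220.7, chromosome 15, 78559167 to 78572783, minus strand). On that chromosome it lies 297 kb from Ncf4. It was at 38.3, 49.9 and 34.2 TPM in replicates 1, 2 and 3, on 769, 1154 and 715 expected counts. Rac1, the ubiquitous relative (ENSMUSG00000001847.14, chromosome 5, 143503634 to 143528036, minus strand), was at 9.59, 10.4 and 10.1 TPM on 329, 415 and 393 counts. The 2 genes did not overlap in level, and Rac2 exceeded Rac1 by 1.99, 2.26 and 1.75 on the log2 scale, a mean of 2.00 ± 0.26 or 3.99-fold. By read-based TPM this gap was 2.25, 2.22 and 1.47. There it rested on short transcripts, as given with the transcripts of Rac2. In the gene tables the gap was 1.06 ± 0.28 with transcripts under 500 bases left out, a setting chosen after seeing the data. Rac1 was the member with the most uncertain read assignment, with a deposited SD of its count of 11.2, 12.8 and 12.0. Its span also overlaps the opposite-strand genes Daglb, at 17.8 ± 4.03 TPM, and Gm42502, at 22.7 ± 0.980 TPM.

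For each of the 3 differences (Cybb with Cyba, Ncf1 with Ncf4, Rac2 with Rac1), the exact two-sided sign-flip permutation test over 3 libraries gave p = 0.25, and 0.25 after Benjamini-Hochberg adjustment over the 3. That is the smallest p that 3 libraries allow, so the differences stand as values with their spread.

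The spread between replicates was tested against that of genes of the same level. By edgeR's goodness-of-fit test with Benjamini-Hochberg adjustment over 14789 genes, 0 of 6 passed an adjusted p of 0.05, against 1.12% of all genes tested. At an unadjusted p under 0.05 there was 1 of 6, Cybb, whose adjusted p was 0.797 by edgeR, against 6.08% of all genes. DESeq2 called none of the 6 a dispersion outlier, against 61 of all genes tested. The SD of log2 CPM ranged from 0.06 for Rac1 to 0.37 for Cybb, with a median of 0.21 beside 0.19 over all genes tested. Since the labels give 1 donor identifier, these values cover the spread between these libraries only.

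The annotated transcripts that carried the reads differed between the members. Cybb, Ncf1 and Ncf4 have transcripts annotated as retaining an intron, and these took 59.2% ± 1.13, 32.9% ± 5.96 and 63.5% ± 1.85 of the gene's TPM (SD, n = 3). Pooled over the transcripts of all protein-coding genes, including genes without such a transcript, the share was 37.1% ± 0.561. Cyba, Rac1 and Rac2 have no such annotated transcript. In this chromatin-bound RNA, whether the reads behind these shares came from such transcripts or from unspliced RNA was not tested. By expected counts the shares were 14.6% ± 1.18, 8.78% ± 2.39 and 33.5% ± 1.39, beside 23.7% ± 0.768 over all protein-coding genes. Cybb thus lay above the background share by TPM and below it by counts, while Ncf4 lay above it by both. Ncf1 lay below it by counts, but its mean TPM share differed from the background by less than its SD, and in replicate 1 the share was 37.7% against 37.2% over all protein-coding genes. The read-based TPM shares were 65.0%, 47.4% and 75.5%, beside 33.5% over all protein-coding genes, so Ncf1 was above the background there.

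**Figure D2:**
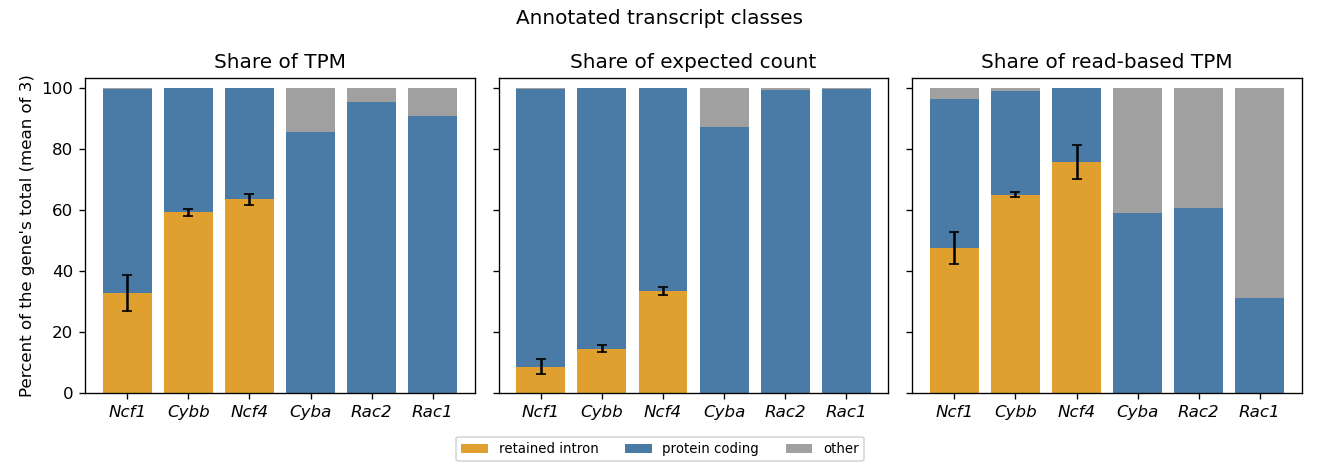
Share of each gene's total held by transcripts annotated as retained intron, protein coding or other, as the mean of 3 libraries by TPM, by expected count and by read-based TPM (error bars: SD of the retained-intron share). The retained-intron share of Cybb falls from 59.2% by TPM to 14.6% by expected count.

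In Cybb the full-length coding transcript Cybb-201, of 4752 bases, was at 51.2, 36.0 and 33.2 TPM and took 85.4% of the counts but 40.8% of the TPM. Cybb-202, of 928 bases, was at 44.4, 29.3 and 23.7 TPM and runs into intron 3 of 12, where it covers 656 of 8599 intron bases. Cybb-203, of 566 bases, was at 31.3, 24.9 and 22.1 TPM and covers 83 bases of intron 6 and 260 bases of intron 8. All 3 transcripts were highest in replicate 1. The exon-intron boundaries that these transcripts, and those of Ncf1 and Ncf4 described next, read through are shown, since these are where the models depart from the spliced form. They are taken from GENCODE M21 transcripts, with 15 exon bases, then 15 intron bases of which the first 6 are in capitals.
Cybb exon 3 to intron 3 (chrX:9465629-9465658, minus strand): aggggttccagtgcgGTAAGAgcaaacact
Cybb exon 8 to intron 8 (chrX:9449626-9449655, minus strand): gtggtcatcaccaagGTATTCactgatgtg
Ncf1 exon 10 to intron 10 (chr5:134222015-134222044, minus strand): cggatggcacaaaggGTGAGCgccagggcg
Ncf4 exon 8 to intron 8 (chr15:78260740-78260769, plus strand): aggcaaaaccatcaaGTTGGTgtcctgctg
Each of the 4 introns begins with GT.

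In Ncf1 the leading transcript was the coding Ncf1-202, at 58.2, 55.0 and 53.4 TPM. Ncf1-205 is also annotated as coding, so the retained-intron share of Ncf1 leaves it out. This transcript was at 23.1, 26.3 and 14.2 TPM and held 25.2% of the counts of the gene. It reads through the whole of intron 10, the last one, whose 161 bases begin at the boundary shown, and its coding length is 1131 bases against 1170 for Ncf1-202. Ncf1-203, a retained-intron model of 664 bases, was at 39.8, 34.1 and 20.5 TPM and covers 285 of the 549 bases of intron 2. Replicate 3 was lowest for all 3 of these transcripts.

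In Ncf4 the coding transcript Ncf4-201, of 1464 bases, was at 29.7, 27.4 and 26.1 TPM and took 60.9% of the counts. Of the retained-intron models, Ncf4-206, of 540 bases, was at 22.4, 29.1 and 19.1 TPM and took 12.9% of the counts. Ncf4-204, of 336 bases, was at 23.5, 12.5 and 23.1 TPM and took 4.16%. Both enter intron 8, of 217 bases, from opposite sides: Ncf4-204 covers 48 bases and Ncf4-206 covers 94. Over Cybb, Ncf1 and Ncf4, the 9 retained-intron transcripts hold 12 stretches of intron of the leading coding transcript, and 0 of these stretches spans its whole intron. Among the other transcripts, 1 spans a whole intron, Ncf1-205.

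**Figure D3:**
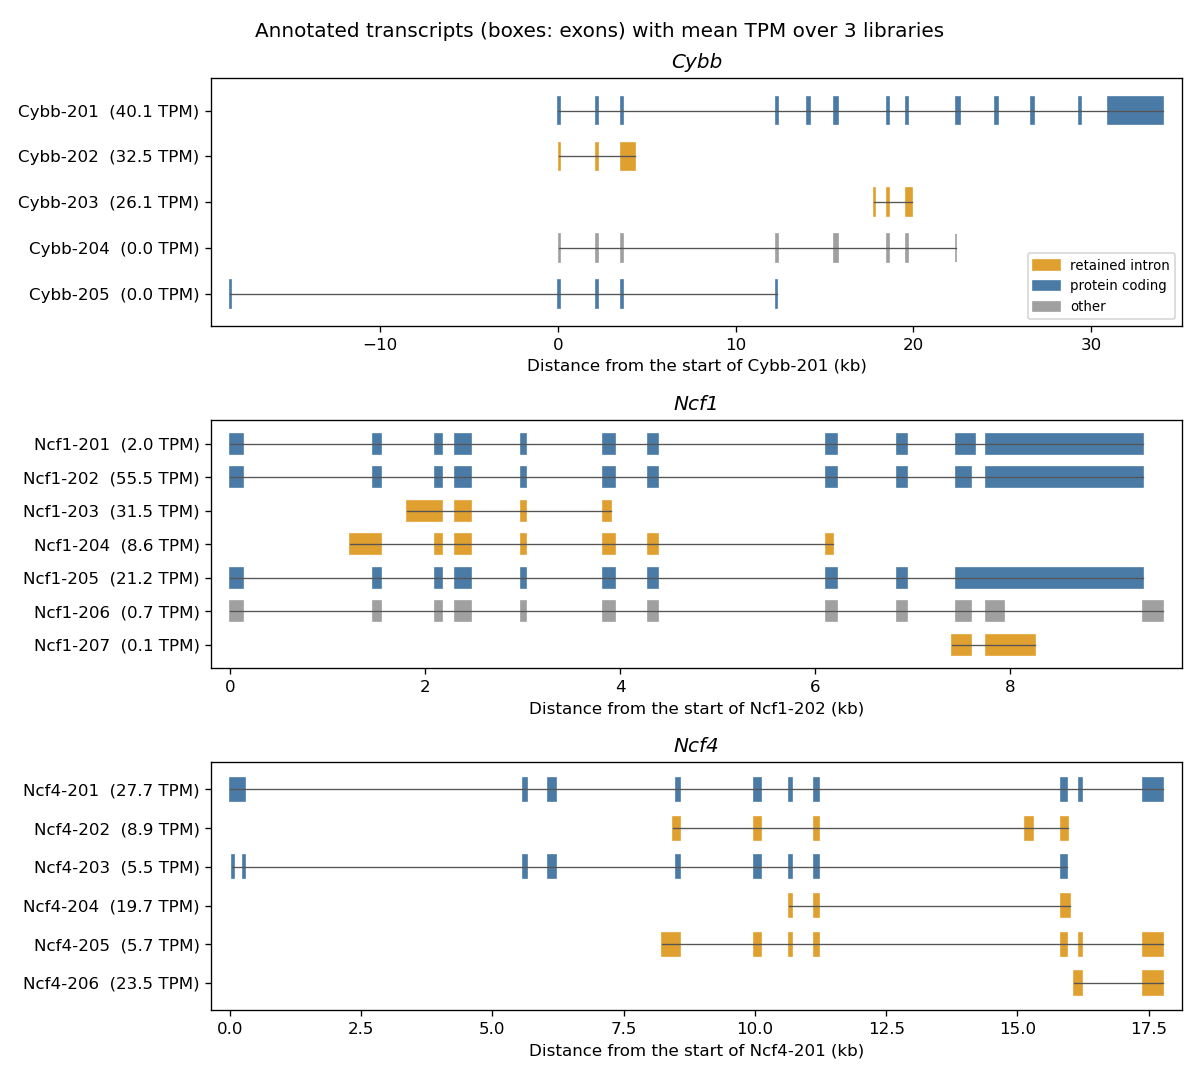
Annotated transcripts of Cybb, Ncf1 and Ncf4 with exons as boxes, placed by distance in kb from the start of the leading coding transcript, each with its mean TPM over 3 libraries. The retained-intron models Cybb-202 (32.5 TPM) and Cybb-203 (26.1 TPM) each cover a short part of Cybb, and Cybb-205, which starts upstream, is at 0 TPM.

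In Rac2 a short model held much of the TPM but few of the reads. Rac2-203, a coding model of 254 bases, was at 16.8, 23.7 and 17.3 TPM on 15.1, 18.0 and 13.7 expected counts. It held 47.3% of the TPM of the gene and 1.81% of its counts. The labelled fragment size of all 3 libraries was 250 to 400 bases, so Rac2-203 is about as short as the fragments. Any effect of fragment size on the TPM of short models was not tested. The full-length transcript Rac2-201, of 3038 bases, was at 19.9, 23.9 and 15.1 TPM on 748, 1128 and 695 counts. By read-based TPM Rac2-203 and Rac2-202, of 459 bases, reached 88.8 ± 23.6 and 71.9 ± 18.3 TPM, while Rac2-201 was at 22.0 ± 4.05. With transcripts under 500 bases left out, a setting chosen after seeing the data, Rac2 was at 19.7 ± 4.39 TPM and Rac1 at 9.19 ± 0.422. By read-based TPM with that limit Rac2 was at 22.0 ± 4.05, below Rac1 at 25.6 ± 1.06. By expected counts scaled to library size and to kilobases of merged exons, also added later, the order of the 6 genes was that of the gene tables, with Rac2 at 16.5 ± 3.37 and Rac1 at 4.94 ± 0.406.

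**Figure D4:**
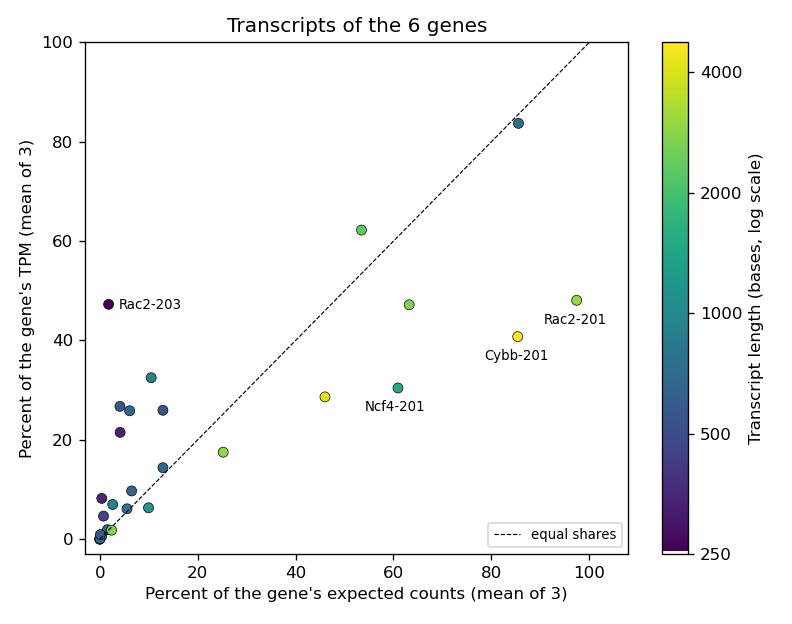
Each transcript of the 6 genes by its percent of the gene's expected counts (x axis) and of its TPM (y axis), both as the mean of 3 libraries, coloured by length on a log scale, with a dashed line of equal shares. Rac2-203, of 254 bases, holds 1.81% of counts and 47.3% of TPM, while Rac2-201 holds 97.4% of counts and 48.1% of TPM.

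Rac1 has a pair of annotated coding transcripts that differ in a cassette exon. Rac1-202 holds the exon, as does the splice form known as Rac1b, a self-activating variant of the GTPase, and its coding length is 633 bases against 576 for Rac1-201. The exon is number 4 of 7 and has 57 bases (chr5:143509597-143509653, minus strand). It is shown in capitals, with 12 bases of the flanking exons in lower case.
Rac1 cassette exon: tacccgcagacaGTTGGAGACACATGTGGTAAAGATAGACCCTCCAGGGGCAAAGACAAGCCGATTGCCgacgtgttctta
Rac1-202 was at 5.86, 6.72 and 6.13 TPM and Rac1-201, without the exon, at 3.10, 2.67 and 2.81 TPM. By expected counts the shares were closer, at 53.5% for Rac1-202 and 46.0% for Rac1-201. The read-based tables gave 13.6 ± 2.61 TPM to Rac1-202 and 0.196 ± 0.0420 to Rac1-201. Most of the read-based TPM of the gene, 68.9% ± 9.65, was on the noncoding models Rac1-203, of 344 bases and at 19.8 ± 4.23 TPM, and Rac1-204, at 11.8 ± 3.36 TPM. By read-based counts the coding Rac1-202 held most of the gene, 76.9%, with 8.63% on Rac1-203 and 12.3% on Rac1-204. Rac1-201 and Rac1-202 also differ at the 3′ end, where Rac1-201 extends 1848 bases further, so their values do not measure the use of the cassette exon alone. In Cyba, Cyba-201 was at 30.3, 54.2 and 38.7 TPM and the noncoding model Cyba-203 at 4.34, 10.6 and 6.81, or 46.6 ± 9.49 and 48.8 ± 3.61 in the read-based tables. The split of Cyba between these 2 therefore depended on the quantification.

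Other genes of the pathway were taken as a list of 40 by role. Of these, 28 reached at least 1 TPM in all 3 libraries, against 45.6% of protein-coding genes, and 0 of the 30 that were tested varied between libraries by edgeR's goodness-of-fit test (1.12% of all genes did). At an unadjusted p under 0.05 there was 1 of 30, Prkcb, at 45.5, 39.5 and 21.8 TPM.

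The other NADPH oxidases and their partners were scarce, with 0 of 9 detected. Noxo1, the organiser of the colon-type oxidase, was highest at 1.81, 1.65 and 0.920 TPM, followed by Nox1 at 0.460, 0.950 and 0.170. Nox3 and Duoxa1 were each at a mean of 0.0133 TPM, and Noxa1 was listed at 0. Nox4 was listed at 0 in the gene tables but at 13.3, 10.3 and 7.88 TPM in the read-based tables. All of the latter came from Nox4-204, a noncoding model of 1159 bases. Nox1 and Nox4 passed by read-based TPM, so 2 of 9 were detected there, against 56.2% of protein-coding genes. Factors for maturation and charge balance were all detected, 3 of 3. Nrros, which is known to bind gp91phox and limit its amount, was at 73.6, 80.8 and 85.4 TPM. Cybc1, a chaperone of the membrane dimer, was at 17.9, 20.1 and 16.3, and the proton channel gene Hvcn1 at 4.65, 8.07 and 7.40.

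Of the kinases, 9 of 10 were detected. Prkcd, a protein kinase C that phosphorylates p47phox, was at 392, 363 and 294 TPM, above each of the 6 oxidase genes in every library. Pik3cd followed at 63.4 ± 12.7, Mapk14, which encodes p38α, at 49.5 ± 11.1 and Akt1 at 35.6 ± 3.94. Prkca was lowest at 1.32 ± 1.25. Regulators and relatives of the Rac GTPases were detected in 10 of 10 cases. Dock2, an exchange factor for Rac in blood cells, was at 332, 340 and 282 TPM and Vav1, another, at 150, 164 and 128. Prex1 and Vav3 were at 62.9 ± 11.0 and 60.3 ± 2.77, and the third Rac gene, Rac3, was lowest at 2.05 ± 0.713. Of the oxidant-handling genes, 6 of 8 were detected. Prdx1, a peroxide-reducing enzyme, led at 166, 156 and 115 TPM, then Sod2, the mitochondrial superoxide dismutase, at 146, 112 and 87.7. Gpx1 and Prdx5 were at 18.7 ± 5.45 and 12.9 ± 3.99, and Sod3 was listed at 0.

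**Figure D5:**
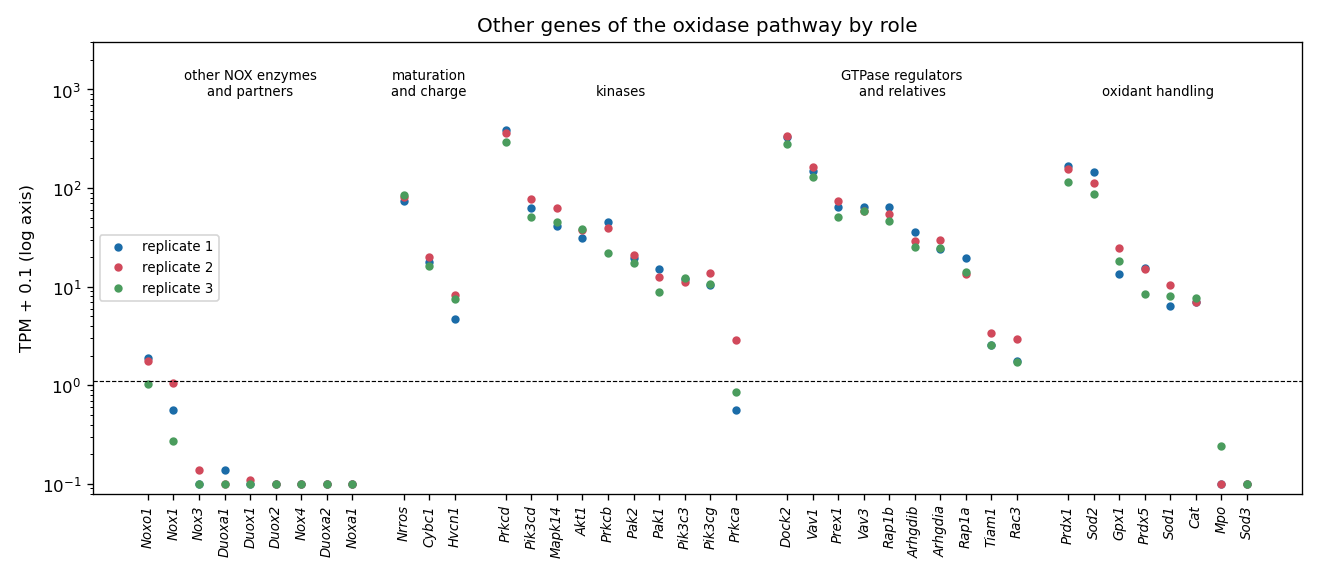
TPM + 0.1 (log axis) of 40 further genes of the oxidase pathway by role, 1 point per replicate, with a dashed line at the detection level of 1 TPM. None of the 9 genes for other oxidases and their partners lies above the line in all 3 libraries, and Prkcd and Dock2 lie highest.

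The protein-coding genes closest to each member over the 3 libraries, by Euclidean distance of log2(TPM + 0.1), were taken as a description of level and pattern. Closest to Cybb were Usp15, Malt1 and Ifih1, at distances of 0.07, 0.09 and 0.14, and Ifih1 stood at 128, 90.5 and 71.8 TPM. Ncf1 was closest to Oas3, Tor1aip1 and Ranbp2, at 0.09, 0.13 and 0.14. Ncf4 was closest to Atf7ip, Trim34a and Zranb2, at 0.03, 0.08 and 0.08. Cyba was closest to Sh3gl1, Mapk14 and Ccdc12, at 0.10, 0.20 and 0.20. Rac2 was closest to Hspa14, Sipa1 and Scamp2, at 0.11, 0.12 and 0.14. Rac1 was closest to 2610044O15Rik8, Bicral and Rhno1, at 0.04, 0.06 and 0.06. Each distance covers 3 libraries of 1 condition.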

How the data were processed

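Per the file headers and the text notes deposited with them, the authors aligned reads to the mm10 transcriptome (GENCODE M21) and gave expected counts and TPM per gene and transcript, with the SD of each gene's count. A second set of deposited transcript tables, called read-based here, holds estimated counts and TPM that the authors derived from reads and an index. For the aligner, the quantifiers, their versions and the strand setting, nothing is stated in these notes or headers. Read-based values were summed per gene, and 86 gene identifiers absent from that set were set to 0. Expected counts were rounded for count models. Entries that name no gene held 1.39%, 0.288% and 0.283% of counts in replicates 1, 2 and 3 and were left out.

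Genes passing filterByExpr were scaled by TMM in edgeR 4.0.16 under R 4.3.3. An intercept-only negative binomial model with trended dispersion was fitted across them, and the residual deviance of each gene gave its goodness-of-fit p by chi-square. The step was tested on simulated data. DESeq2 1.42.0 served as an alternative. Log2 CPM used a prior count of 2, and log2 TPM a pseudocount of 0.1, which understates differences of low genes. Other steps used Python 3.11.15, pandas 2.3.3 and scipy 1.17.1. Further alternatives were read-based tables, protein-coding rescaling, leaving out each replicate and a length limit.

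The members were defined by gene symbol alone, but they and the lists were chosen with earlier results of these data known. Named are all members, their transcripts with at least 10% of TPM, up to 4 highest genes and the lowest of each role, and the 3 nearest genes of a member. Cybb-205, Rac2-202, Rac1-203, Rac1-204, Nox4, Prkcb and the marker genes with values were named after their values were seen. A further gene of the planned pathway list is not reported here.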

Additional observations from a re-analysis of the deposited data

How the results depend on the processing

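By read-based TPM the means were 144.8 TPM for Cybb, 118.8 for Cyba, 175.8 for Ncf4, 45.4 for Rac1 and 182.7 for Rac2, and Ncf1 stayed within its SD. The difference of Ncf1 and Ncf4 reversed there, to −0.38. With TPM rescaled to protein-coding genes the means were 334.9 for Cybb, 166.5 for Cyba, 405.2 for Ncf1, 310.8 for Ncf4, 34.1 for Rac1 and 138.1 for Rac2, which changes the unit and not the order. With transcripts under 500 bases left out, Ncf4 was at 71.4, Rac1 at 9.19 and Rac2 at 19.7 TPM. By read-based TPM with that limit, Cybb was at 138.1, Ncf1 at 134.8, Ncf4 at 121.5, Cyba at 118.8, Rac1 at 25.6 and Rac2 at 22.0 TPM. The retained-intron shares of Cybb, Ncf1 and Ncf4 were 14.6%, 8.78% and 33.5% by expected counts and 65.0%, 47.4% and 75.5% in the read-based tables, and that of Ncf4 was 53.3% without short transcripts. Leaving out each replicate in turn, in the gene tables, gave 0.63 to 1.30 for Cybb minus Cyba, 0.30 to 0.53 for Ncf1 minus Ncf4 and 1.87 to 2.12 for Rac2 minus Rac1 on the log2 scale. The count of members called variable was 0 under all 7 alternatives. Over all genes tested, these alternatives called 56 to 273 genes, beside 166 in the main setting. The number of pathway genes detected stayed within 1.5 times of 28. No pairing of libraries between conditions was possible because there is only 1 group. The differences between members were taken within each library. Depth limits short models with few reads. In the transcript tables that go with the gene tables, the TPM of Rac2-203 rests on 13.7 to 18.0 expected counts a library. There Rac1-203 was at 0.63 to 1.16 TPM on 1.23 to 2.17 expected counts. The read-based TPM rests on more, 141 to 287 estimated counts for Rac2-203 and 41.2 to 105 for Rac1-203. Only in read-based TPM without short transcripts did Rac2 lie below Rac1 in mean level, among the scalings listed here.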
